A study of Sus scrofa with 8 samples.

Results

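Genes that mark tendon and the connective tissue of muscle were followed across early development of pig somites. The group has 8 members of the 21301 genes in the count tables, listed by symbol: TNMD, SCX, MKX, THBS4, TNC, POSTN, EBF2 and TCF7L2. Each was found once in the gene list of all 8 single-cell libraries. Somites were taken at embryonic day (E) 16, 18 and 21 and the myotome, the muscle-forming part of the somite, at E28. Each stage had a library of Tibetan pigs (ZZ) and a library of a Duroc and Tibetan cross (DZ), every library holding 5 pooled embryos from 1 sow, without treatment and with no sex given. A stage of a breed is therefore a single library, and tissue and stage cannot be told apart at E28. No p-value measures a spread between repeated pools of the same stage and breed. Where stages were joined, p-values rest on a spread that includes the differences between those stages. Where cell types were compared within libraries, they rest on how the differences between types vary from library to library, estimated over all types. The E16 and E18 libraries are called early and the E21 and E28 libraries late, 4 of each.

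Tendon progenitors arise at the border between the sclerotome and the myotome, and the fibroblasts of muscle connective tissue surround the myogenic cells and help to pattern them. SCX (scleraxis) is the transcription factor that first marks tendon progenitors, MKX (Mohawk) is a homeobox factor of later tendon cells, and TNMD (tenomodulin) is a transmembrane protein of differentiating tendon and ligament. THBS4, TNC and POSTN are secreted matrix proteins: thrombospondin 4 is enriched where muscle joins tendon, tenascin C surrounds many condensing mesenchymes, and periostin is made by fibrous tissues such as the periosteum. EBF2 is a transcription factor of mesenchymal precursors, and TCF7L2, an effector of Wnt signalling, is widely used to mark muscle connective tissue fibroblasts.

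In the RefSeq annotation of Sscrofa11.1, the build of the deposited counts, the genes are TNMD on chrX:82269323-82292083, SCX on chr4:500884-503276, MKX on chr10:39096778-39173384, THBS4 on chr2:88729531-88780759, TNC on chr1:255533235-255630381, POSTN on chr11:13225183-13258973, EBF2 on chr14:9816992-10027574 and TCF7L2 on chr14:123343695-123547332. SCX lies within BOP1, which is on the other strand, and THBS4, POSTN, EBF2 and TCF7L2 each overlap at least 1 uncharacterised locus. The 250 bases before the RefSeq start are shown for 4 members, read in the direction of transcription. They are the factors MKX and EBF2, and the products TNMD and POSTN, which differed from each other in the cell type with the highest mean level. Capitals mark an E-box (CANNTG), the EBF motif CCCNNGGG or the TCF core CTTTGA, each searched on both strands.
TNMD, chrX:82269073-82269322, plus strand: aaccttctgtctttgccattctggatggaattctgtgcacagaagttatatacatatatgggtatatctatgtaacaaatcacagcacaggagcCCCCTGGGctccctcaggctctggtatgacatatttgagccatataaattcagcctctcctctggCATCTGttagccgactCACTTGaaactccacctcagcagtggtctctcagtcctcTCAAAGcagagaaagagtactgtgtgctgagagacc
MKX, chr10:39173385-39173634, minus strand: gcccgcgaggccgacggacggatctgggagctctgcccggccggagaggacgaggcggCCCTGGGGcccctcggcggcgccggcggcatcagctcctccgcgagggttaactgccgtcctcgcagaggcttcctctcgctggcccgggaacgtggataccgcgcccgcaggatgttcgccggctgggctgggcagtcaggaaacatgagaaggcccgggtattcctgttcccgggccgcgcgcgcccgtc
EBF2, chr14:10027575-10027824, minus strand: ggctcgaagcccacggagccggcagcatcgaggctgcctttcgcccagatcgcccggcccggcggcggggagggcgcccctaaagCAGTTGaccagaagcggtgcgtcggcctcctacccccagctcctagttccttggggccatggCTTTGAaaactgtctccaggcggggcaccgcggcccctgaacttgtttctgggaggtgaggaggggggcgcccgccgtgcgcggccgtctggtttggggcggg
POSTN, chr11:13258974-13259223, minus strand: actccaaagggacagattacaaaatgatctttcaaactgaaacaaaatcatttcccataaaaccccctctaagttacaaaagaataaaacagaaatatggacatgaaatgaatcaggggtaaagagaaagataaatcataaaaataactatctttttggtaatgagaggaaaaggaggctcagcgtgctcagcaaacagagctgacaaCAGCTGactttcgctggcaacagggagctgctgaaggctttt
The TNMD sequence held 2 E-boxes, 1 EBF motif and 1 TCF core. EBF2 held 1 E-box and 1 TCF core, MKX held 1 EBF motif and POSTN held 1 E-box. Of the windows of the same length before 19556 protein-coding RefSeq genes, 61.9% held an E-box, 17.3% the EBF motif and 10.7% the TCF core. GC content was 73.2% before MKX and 70.4% before EBF2, against 46.4% before TNMD and 38.0% before POSTN, with a median of 57.6% over all windows.

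Of 90688 barcodes 74868 were kept, 5774 to 10972 a library, with 42273403 to 58222333 unique molecular identifiers (UMIs, counted RNA molecules) and a median of 3406 to 6225 UMIs per cell. The E16-ZZ library stood apart, with 39.2% of its barcodes over the mitochondrial limit against 1.05% to 9.15% in the others. Among kept cells 690 barcode sequences occurred in more than 1 library. Cells were gated by marker genes, none of them a member: 38319 passed the gate of a single type, 5278 passed 2 gates and 31271 passed none. A type is named with -like because it rests on markers only. By fold, OGN and LUM led the fibroblast-like cells, MATN4 and ACAN the named genes of the chondrocyte-like cells, and SOX10 the glia-like cells. All 5 are gate markers, so their lead was fixed by the gate. The first named genes that were not markers were DKK2, SFRP2 and CHODL in fibroblast-like cells. They were COL11A2 and SNORC in chondrocyte-like cells, and CDH6 and TFAP2B in glia-like cells. EBF2, which is not a marker, came 8th in the fibroblast-like cells. These ranks pool all 8 libraries and compare with other gated cells only, so stage and type are mixed in them. Fibroblast-like cells numbered 82 to 269 in early and 1295 to 5231 in late libraries. In sums over a whole library, more cells of a type and more RNA per cell cannot be told apart.

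The first comparison asked which members differed between late and early libraries. Levels are CPM, a gene's UMIs as a scaled share of all UMIs of the summed cells, given in the order ZZ then DZ within each stage. TNMD was at 1.88 and 0.911 CPM in the E16 pair, 1.37 and 3.10 in the E18 pair, 15.7 and 13.9 in the E21 pair, and 55.8 and 33.0 in the E28 pair. MKX was at 0.447, 0.962, 0.412 and 0.847 CPM in the early libraries and at 7.55, 8.20, 19.9 and 12.3 CPM in the late ones. For both, all 4 late libraries exceeded all 4 early ones and both E28 libraries exceeded both E21 libraries. EBF2 was at 1.43 and 2.11 CPM in the E16 pair, 9.14 and 12.2 in the E18 pair, 44.0 and 59.2 in the E21 pair, and 101 and 179.7 in the E28 pair. Like TCF7L2, it stood higher in both libraries of every later stage. TCF7L2 was already at 26.0 to 36.2 CPM in the early libraries and at 57.6 to 111 CPM in the late ones. SCX was nearly absent, with 61 UMIs in 60 of the kept cells, 3 of them in early and 58 in late libraries. Its late level was 23.3 times the early one, with a 95% counting interval of 7.58 to 116.

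THBS4 differed most at E28. It was at 2.14, 3.63, 2.51 and 2.80 CPM in the early libraries, 5.43 and 6.09 in the E21 pair, and 33.8 and 142 in the E28 pair, of which DZ stood far above ZZ. POSTN was at 67.1, 18.1, 59.9 and 81.5 CPM in the early libraries and at 139.7, 89.0, 513 and 345 CPM in the late ones. Its E16-DZ library was the lowest and its E28 libraries the highest. TNC was at 41.4, 49.3, 69.6 and 74.5 CPM in the early libraries and at 18.8, 28.4, 103 and 77.2 CPM in the late ones. Its E21 libraries were the lowest of all 8, so the periods overlapped.

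**Figure D1:**
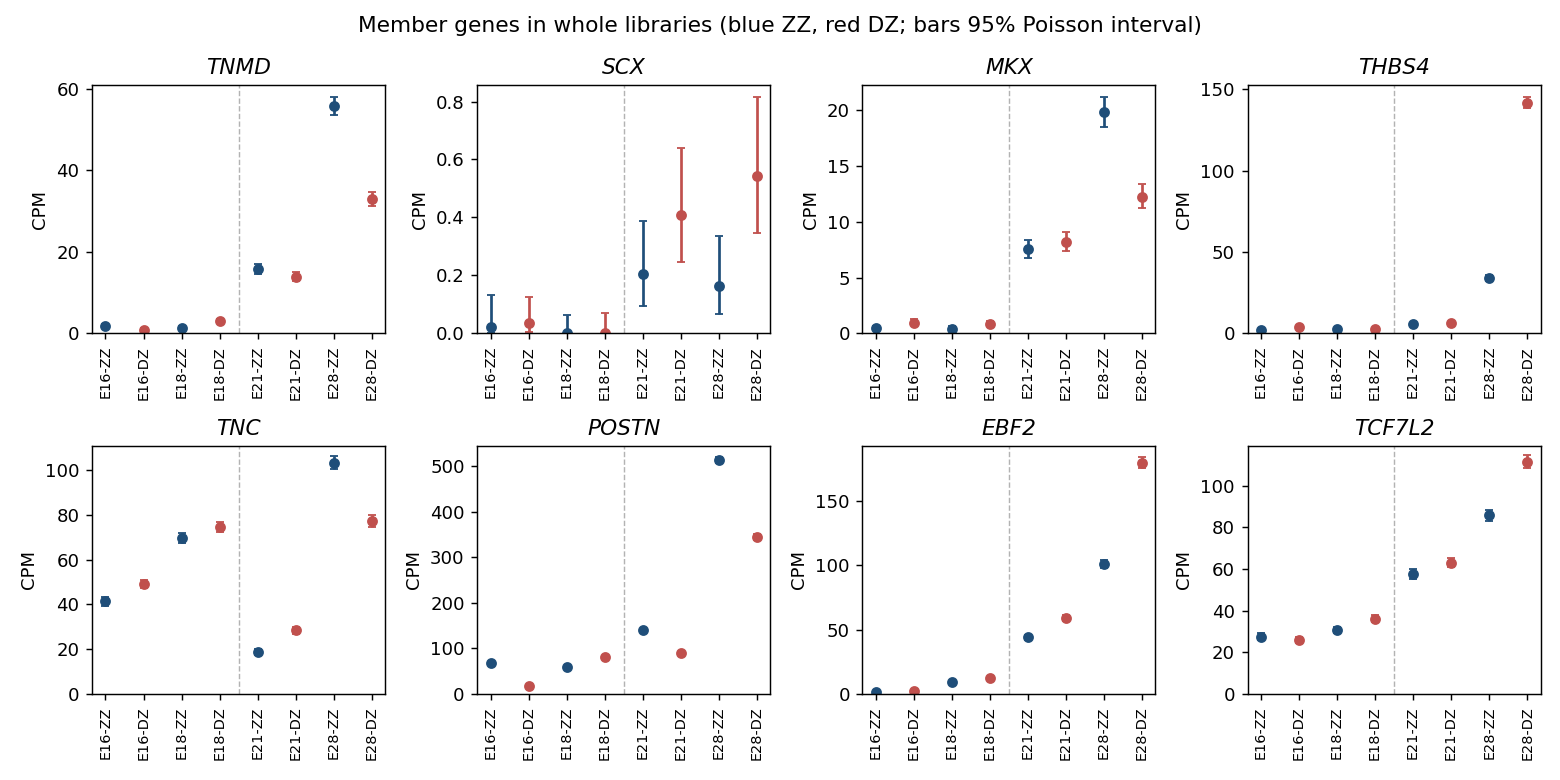
CPM of the 8 member genes (vertical axis) in each of the 8 libraries (horizontal axis), ZZ and DZ in separate colours, with 95% Poisson counting intervals; a dashed line separates early from late libraries. TNMD, MKX, EBF2 and TCF7L2 stand higher in all 4 late libraries, THBS4 is far higher at E28, and TNC is lowest at E21.

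By edgeR's quasi-likelihood test over 14685 genes, with the breed as a covariate and Benjamini-Hochberg adjustment, 6 of the 7 members tested were higher in late libraries at an adjusted p below 0.05, against 16.8% of all genes. SCX had too few UMIs to be tested. The log2 fold change, late minus early, was 4.03 ± 0.48 for MKX (SE, 4 against 4 libraries, adjusted p = 0.0022), 3.83 ± 0.58 (adjusted p = 0.00373) for TNMD and 3.78 ± 0.74 (adjusted p = 0.00805) for EBF2. TCF7L2 had a smaller change with a small error, 1.21 ± 0.20 (adjusted p = 0.00515). THBS4, at 3.60 ± 0.98 (adjusted p = 0.025), and POSTN, at 2.07 ± 0.61 (adjusted p = 0.0324), were called by narrow margins. TNC was not called, at -0.21 ± 0.51 (adjusted p = 0.768). The THBS4 call was lost without any 1 library other than E21-ZZ and E21-DZ (adjusted p up to 0.0966), and its change was 2.16 without E28-DZ. The POSTN call was lost without any of E16-ZZ, E16-DZ, E18-ZZ, E28-ZZ and E28-DZ (adjusted p up to 0.107), and with a mitochondrial limit of 5% its change was 1.15 (adjusted p = 0.252). Without both E28 libraries, which leaves 2 late libraries, THBS4 (0.88, adjusted p = 0.0615) and POSTN (0.82, adjusted p = 0.255) lost their calls and TNC was called lower, at -1.498 (adjusted p = 0.021). Without both E16 libraries EBF2 and MKX kept their calls and the other 4 lost them (adjusted p up to 0.178). In CPM, 6 members other than SCX had all 4 late libraries above all 4 early ones, as had 21.8% of the 16848 genes found in at least 10 cells.

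The share of cells with a UMI of a gene was compared after thinning each cell to 1500 UMIs. EBF2 was found in a mean of 1.12% ± 0.93 of cells in early libraries (SD, n = 4) and 12.8% ± 7.6 in late ones (n = 4). TNMD was found in 0.298% ± 0.12 and 3.80% ± 2.36, and POSTN in 4.10% ± 1.66 and 14.7% ± 9.66. TCF7L2 was found in 4.18% ± 0.71 and 11.08% ± 3.47, THBS4 in 0.441% ± 0.053 and 5.79% ± 7.73, and MKX in 0.120% ± 0.046 and 1.75% ± 0.88. SCX was found in 0.0496% ± 0.023 of late cells and in no thinned early cell. Erythroid-like cells, which should not make tenomodulin, had TNMD in 1 of 55 thinned cells of E28-ZZ (1.82%) and in 0 of 63 of E28-DZ, which leaves room for 4.76% by the floor of 3 cells and for 5.69% by the exact interval. EBF2 and THBS4 were found in none of these 55 and 63 cells and POSTN in 2 of the 55 (3.64%) and none of the 63. Before thinning, at a median depth of 7197 and 5045 UMIs against 3909 and 3406 over all cells, the highest erythroid-like shares at E28 were 8.77% for EBF2 and for TNMD and 12.3% for POSTN, all in ZZ, and 6.58% for THBS4 in DZ. Over all cells of those libraries, EBF2 was found in 27.2%, TNMD in 14.05%, POSTN in 33.7% and THBS4 in 28.8%. TNC was found in 6.39% ± 0.85 of early and 7.14% ± 4.83 of late cells (exact two-sided permutation test, p = 0.743). MKX, TNMD, THBS4, POSTN, EBF2 and TCF7L2 did not overlap between the periods, each with an exact permutation p of 0.0286, the smallest that 70 splits allow, while SCX, found in no thinned early cell, is not counted. Of the 16848 genes, 22.0% had all 4 late shares above all 4 early ones. POSTN overlapped between the periods both in cells thinned to 2500 UMIs and in cells that were not thinned, as did THBS4 in the latter (exact permutation p = 0.0571 for each).

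Adjacent stages were compared in a single fit with 2 libraries a stage. From E16 to E18, EBF2 was the one member called, higher by 2.43 ± 0.14 (adjusted p = 0.00225) on the log2 scale, where 1.98% of genes were called higher. The members not called were TNMD at 0.58 ± 0.51, MKX at -0.36 ± 0.50, THBS4 at -0.21 ± 0.44, TNC at 0.50 ± 0.26, POSTN at 0.80 ± 0.47 and TCF7L2 at 0.14 ± 0.13, and SCX went from 3 UMIs to 0. The E16 counts were made with Cell Ranger 3.1.0 and the E18 counts with 3.0.2, so stage and version cannot be told apart here. From E18 to E21, 4 of the 7 members other than SCX were called higher, where 10.8% of genes were. They were EBF2 by 2.19 ± 0.12 (adjusted p = 0.000495), MKX by 3.59 ± 0.49 (adjusted p = 0.00593), TNMD by 2.61 ± 0.49 (adjusted p = 0.0141) and TCF7L2 by 0.77 ± 0.13 (adjusted p = 0.0111). SCX went from 0 UMIs at E18 to 28 at E21, at least 11.5-fold higher against a floor of 3 UMIs over the group. It could pass the filter on low counts only through the late libraries, so its call is not counted. In the same step TNC was called lower, at -1.69 ± 0.27 (adjusted p = 0.00933), where 10.4% of genes were called lower, and THBS4 at 1.02 ± 0.42 and POSTN at 0.49 ± 0.45 were not called.

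From E21 to E28, 4 members were called higher, where 4.32% of genes were. They were THBS4 by 3.67 ± 0.44 (adjusted p = 0.00912), TNC by 1.94 ± 0.27 (adjusted p = 0.0128), EBF2 by 1.39 ± 0.12 (adjusted p = 0.00383) and TCF7L2 by 0.68 ± 0.13 (adjusted p = 0.027). POSTN stood at 1.90 ± 0.46 (adjusted p = 0.0529) and TNMD at 1.56 ± 0.45 (adjusted p = 0.0809), neither called, as MKX at 1.07 ± 0.43 was not. Without E18-ZZ the calls of MKX, TCF7L2, TNC and TNMD from E18 to E21 were lost, as were those of TCF7L2 and TNC without E18-DZ and that of TNMD without E21-DZ (adjusted p up to 0.123). From E21 to E28, TNC lost its call without E21-ZZ (adjusted p = 0.0532) and TCF7L2 without any 1 library of E18, E21 or E28 (adjusted p up to 0.115).

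The next comparison asked which cells of the late libraries held the members. TNMD had its highest mean in chondrocyte-like cells, 54.7 ± 10.8 CPM (SD, n = 4), with fibroblast-like cells next at 37.2 ± 21.8 CPM (n = 4). Their ranges overlapped, 39.6 to 65.5 and 15.9 to 67.0 CPM. TNMD was at 10.1 CPM in sclerotome-like, 6.92 in muscle progenitor-like, 4.78 in glia-like and 4.05 in erythroid-like cells, the last of which ranged over 0 to 12.4 CPM. MKX had its highest mean in chondrocyte-like cells (29.3 ± 9.62 CPM), followed by myocyte-like (21.7 ± 22.9), sclerotome-like (20.6 ± 8.73, n = 3) and fibroblast-like cells (10.5 ± 4.02). The myocyte-like mean came mainly from E28-ZZ, at 55.8 CPM, since the other 3 libraries lay between 6.83 and 13.4. By mean, EBF2 was highest in fibroblast-like (148 ± 113) and sclerotome-like cells (123 ± 39.7, n = 3), whose ranges overlapped. In every late library with both sums sclerotome-like cells stood higher, and E28-DZ (304.5 CPM in fibroblast-like cells) had no sclerotome-like sum. The counting intervals overlapped in E21-ZZ and in E28-ZZ, the latter from 12 sclerotome-like UMIs. Pax3+ progenitor-like cells, with late sums in the E21 pair only, held 77.1 and 74.2 CPM, against 63.9 and 65.8 in fibroblast-like cells. Cells passing no gate held 1016 of 1945 EBF2 UMIs in E21-ZZ and 1647 of 2752 in E21-DZ, at 60.1 and 80.0 CPM. In the E28 pair they stood below fibroblast-like cells. EBF2 was also at 33.2 to 71.6 CPM in neuron-like cells, but at 4.73 to 9.24 CPM in muscle progenitor-like cells.

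SCX was found in 27 UMIs of late fibroblast-like, 7 of chondrocyte-like and 3 of muscle progenitor-like cells, too few to order these types. Among the gated types, THBS4 had its highest means in fibroblast-like (74.5 ± 111 CPM) and chondrocyte-like cells (59.1 ± 77.9). Their SDs exceeded the means, with E28-DZ at 239 and 173 CPM. In the other late libraries THBS4 stood slightly higher in chondrocyte-like cells, with overlapping counting intervals. It was at 9.19 against 8.34 CPM in E21-ZZ, 7.15 against 6.38 in E21-DZ and 47.3 against 44.1 in E28-ZZ. In early libraries it was instead at 34.8, 23.2 and 24.3 CPM in the cardiac-like cells of E16-ZZ, E16-DZ and E18-ZZ, against at most 3.10 CPM in fibroblast-like cells. TNC was highest in chondrocyte-like (103 ± 75.2 CPM), sclerotome-like (71.7 ± 10.1, n = 3) and fibroblast-like cells (62.8 ± 47.8), which overlapped. In the E21 pair sclerotome-like cells held 62.3 and 70.4 CPM of TNC against 33.2 and 43.3 in chondrocyte-like cells. In E28-ZZ they held 82.4 against 171. POSTN was highest in glia-like cells, with 1572, 1260, 2892 and 2084 CPM, above every late value of the other types. Chondrocyte-like cells (408 ± 441) and fibroblast-like cells (268 ± 154) came next and overlapped. Their order was not the same in every library. Fibroblast-like cells stood higher in E21-ZZ, at 139.6 against 32.0 CPM. The highest chondrocyte-like value, 893 CPM, exceeded every fibroblast-like one (131 to 407 CPM). TCF7L2 was highest in muscle progenitor-like cells, at 154.6, 138, 114 and 101 CPM, with fibroblast-like cells at 64.3, 61.1, 91.0 and 145 CPM. It was nearly absent from neuron-like cells (0 to 6.66 CPM).

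**Figure D2:**
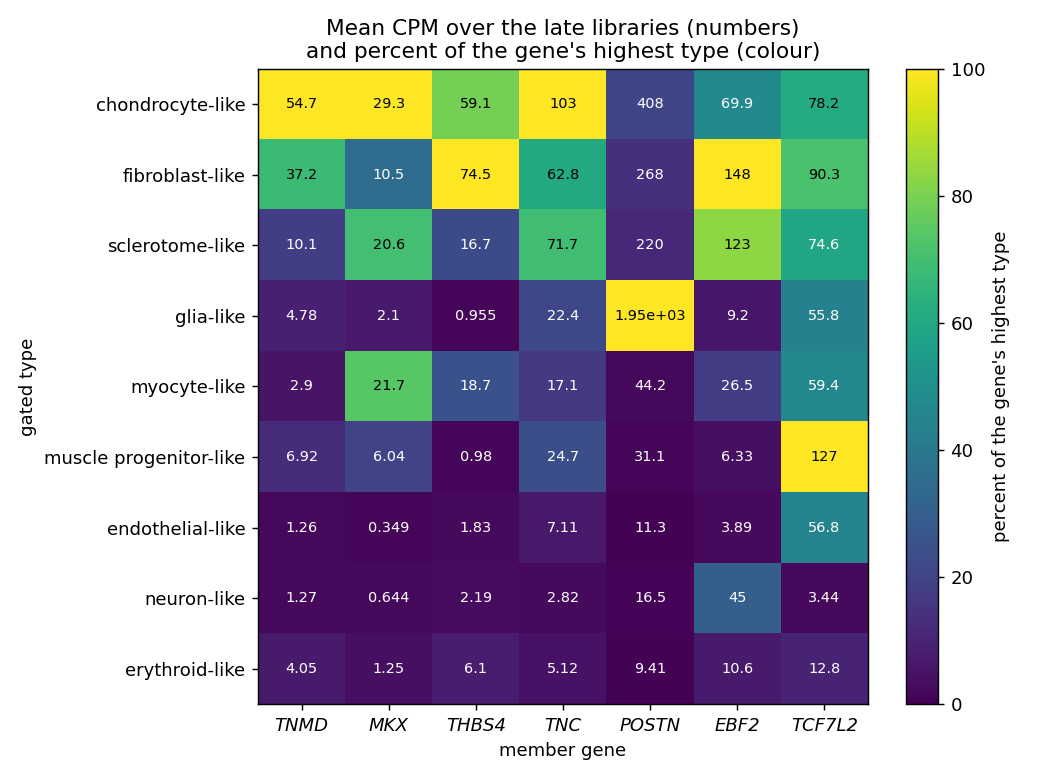
Mean CPM (numbers) of the members over the late libraries in each gated type with at least 20 cells in at least 3 late libraries; colour gives the percent of the gene's highest type, so it compares types within a gene. By these means TNMD, MKX and TNC are highest in chondrocyte-like, THBS4 and EBF2 in fibroblast-like, POSTN in glia-like and TCF7L2 in muscle progenitor-like cells. By library, EBF2 is higher in sclerotome-like than in fibroblast-like cells wherever both have a sum. Its counting intervals overlap in E21-ZZ and in E28-ZZ, the latter from 12 sclerotome-like UMIs. THBS4 is higher in chondrocyte-like than in fibroblast-like cells except in E28-DZ, with overlapping counting intervals in the other late libraries. Neither difference was called in the fits with the library as a block. TNC is higher in sclerotome-like than in chondrocyte-like cells in the E21 pair only. In E28-ZZ TNMD is higher in fibroblast-like, and MKX in myocyte-like, than in chondrocyte-like cells. Counting intervals overlap for both, and for TNC in E21-DZ. In E28-DZ TCF7L2 is higher in fibroblast-like than in muscle progenitor-like cells.

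Fibroblast-like cells were tested against each other type over 10874 genes, with the library as a block. Members nearly absent from a type passed the filter on low counts through the types where they are high. A member's call is therefore counted only where it had at least 5 UMIs in every sum compared, a limit chosen after the values were seen, and for the others only the UMIs are given. Against muscle progenitor-like cells 5 of the 6 members so counted were called, where 31.5% of genes were. On the log2 scale, EBF2 was higher by 4.50 ± 0.33 (adjusted p = 2.43e-12), POSTN by 2.80 ± 0.61 (adjusted p = 0.000666), TNMD by 2.26 ± 0.27 (adjusted p = 6.83e-08) and TNC by 1.20 ± 0.32 (adjusted p = 0.00402). THBS4 had 0, 0, 1 and 28 UMIs in the muscle progenitor-like sums, in the order of the stages with ZZ before DZ, and is not counted. TCF7L2 was lower, at -0.59 ± 0.19 (adjusted p = 0.0154), a call lost without E21-ZZ or E21-DZ (adjusted p up to 0.294) and with DESeq2 (adjusted p = 0.0682). The TNC call was lost without E28-ZZ (adjusted p = 0.126). MKX, at 0.84 ± 0.33 (adjusted p = 0.0517), was not called here but passed under 6 other settings, such as a gate score of at least 1 (adjusted p = 0.0112), though not with DESeq2 (0.198).

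Against glia-like cells the 4 members counted were all called, where 25.7% of genes were: EBF2 higher by 3.64 ± 0.34 (adjusted p = 5.02e-10), TNC by 1.06 ± 0.36 (adjusted p = 0.0268) and TCF7L2 by 0.63 ± 0.21 (adjusted p = 0.0252), and POSTN lower, at -3.08 ± 0.55 (adjusted p = 4.75e-05). TNMD had 3 to 7, MKX 1 to 4 and THBS4 0 to 2 UMIs in a glia-like sum. The TNC and TCF7L2 calls there were lost without E28-ZZ or E28-DZ, and that of TNC also without E21-DZ (adjusted p up to 0.234). Against chondrocyte-like cells 3 of 7 were called, where 10.9% of genes were. MKX was lower, at -1.56 ± 0.29 (adjusted p = 0.000232), TNMD was lower, at -0.80 ± 0.23 (adjusted p = 0.0163), and EBF2 was higher, at 0.88 ± 0.25 (adjusted p = 0.0159). The TNMD call was lost without E21-ZZ, E21-DZ or E28-DZ (adjusted p up to 0.203) and the EBF2 call without E28-ZZ or E28-DZ (up to 0.363), and DESeq2 called neither. Not called were THBS4 at -0.02 ± 0.19, TNC at -0.81 ± 0.29, POSTN at -0.16 ± 0.53 and TCF7L2 at 0.11 ± 0.19. Against sclerotome-like cells, of which 3 late libraries had 20 to 90, edgeR called 0 of the 7, where 1.99% of genes were called. DESeq2 called 0 of them as well, and 1 member, TNC, had an unadjusted p below 0.05. Only EBF2, at -0.09 ± 0.36, and TNC, at -0.95 ± 0.46, had at least 5 UMIs in every sum.

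Against myocyte-like cells 4 of the 5 members counted were called, where 40.2% of genes were. MKX was lower, at -1.17 ± 0.35 (adjusted p = 0.0082), and EBF2, at 1.96 ± 0.31 (adjusted p = 5.52e-06), POSTN, at 2.37 ± 0.65 (adjusted p = 0.00402), and TNC, at 1.40 ± 0.41 (adjusted p = 0.00691), were higher. TCF7L2, at 0.23 ± 0.22, was not called, and TNMD had 0 to 6 UMIs in a myocyte-like sum and THBS4 had 2, 1, 4 and 96. Without E28-ZZ the MKX difference was -0.52 (adjusted p = 0.387) and the TNC call was lost too (adjusted p = 0.0726), and DESeq2 did not call MKX (adjusted p = 0.0609). Against endothelial-like cells, where 45.6% of genes were called, POSTN was higher by 4.56 ± 0.85 (adjusted p = 4.46e-05), and TNMD, MKX, THBS4, TNC and EBF2 are not counted, with at most 15 UMIs in an endothelial-like sum. Against neuron-like cells, where 57.0% of genes were called, EBF2 was higher by 1.66 ± 0.27 (adjusted p = 3.9e-06) and POSTN by 4.58 ± 0.71 (adjusted p = 1.55e-06). TNMD, MKX, THBS4, TNC and TCF7L2 are not counted there, TCF7L2 with 53, 18, 0 and 2 UMIs. The TCF7L2 call against endothelial-like cells, at 0.57 ± 0.23 (adjusted p = 0.0394), was lost without any 1 of the 4 libraries (adjusted p up to 0.285). Against erythroid-like cells, where 34.4% of genes were called, no member had 5 UMIs in every sum and none is counted.

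Cells counted as passing both the chondrocyte-like and the fibroblast-like gate numbered 108 and 69 in the E21 pair and 809 and 543 in the E28 pair. TNMD was richest in these cells. In them it was at 100.5, 106.8, 155.2 and 167.1 CPM, above the level of either type alone in each library. A TNMD UMI was found in 24.5% to 33.3% of them, against 4.55% to 14.9% of fibroblast-like and 12.8% to 17.6% of chondrocyte-like cells. Their median UMIs per cell exceeded both single types in E21-ZZ (3818 against 3455 in fibroblast-like and 3581 in chondrocyte-like cells) and in E21-DZ (4463 against 4286 and 4318). In E28-ZZ (4013 against 3658 and 4137) and E28-DZ (2929 against 3248 and 2880) they lay between the types. The part of doublets in these cells was not tested. TNMD led to the choice of these cells, so its level in them is a description, given with no test.

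The other members were compared with the library as a block, in a fit chosen after the values were seen. Against fibroblast-like cells 3 of the 6 were called, where 6.33% of genes were. These were MKX by 1.88 ± 0.22 (adjusted p = 0.0003), TNC by 0.81 ± 0.14 (adjusted p = 0.00453) and TCF7L2, which was lower, at -0.60 ± 0.16 (adjusted p = 0.0482). The MKX call held without each library in turn, that of TNC in 3 of 4 cases and that of TCF7L2 in 2 of 4 (adjusted p up to 0.159 and 0.335). Not called were THBS4 at -0.48 ± 0.20, POSTN at 0.82 ± 0.49 and EBF2 at -0.79 ± 0.23. Against chondrocyte-like cells edgeR called 0 of the 6, where 0.866% of genes were called, and POSTN and TCF7L2 had an unadjusted p below 0.05. The values were MKX at 0.33 ± 0.22, THBS4 at -0.44 ± 0.21, TNC at -0.00 ± 0.14, POSTN at 1.16 ± 0.45, EBF2 at 0.04 ± 0.25 and TCF7L2 at -0.50 ± 0.17. POSTN in these cells was at 105.0 and 118.4 CPM in the E21 pair and at 1652 and 1295 CPM in the E28 pair.

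**Figure D3:**
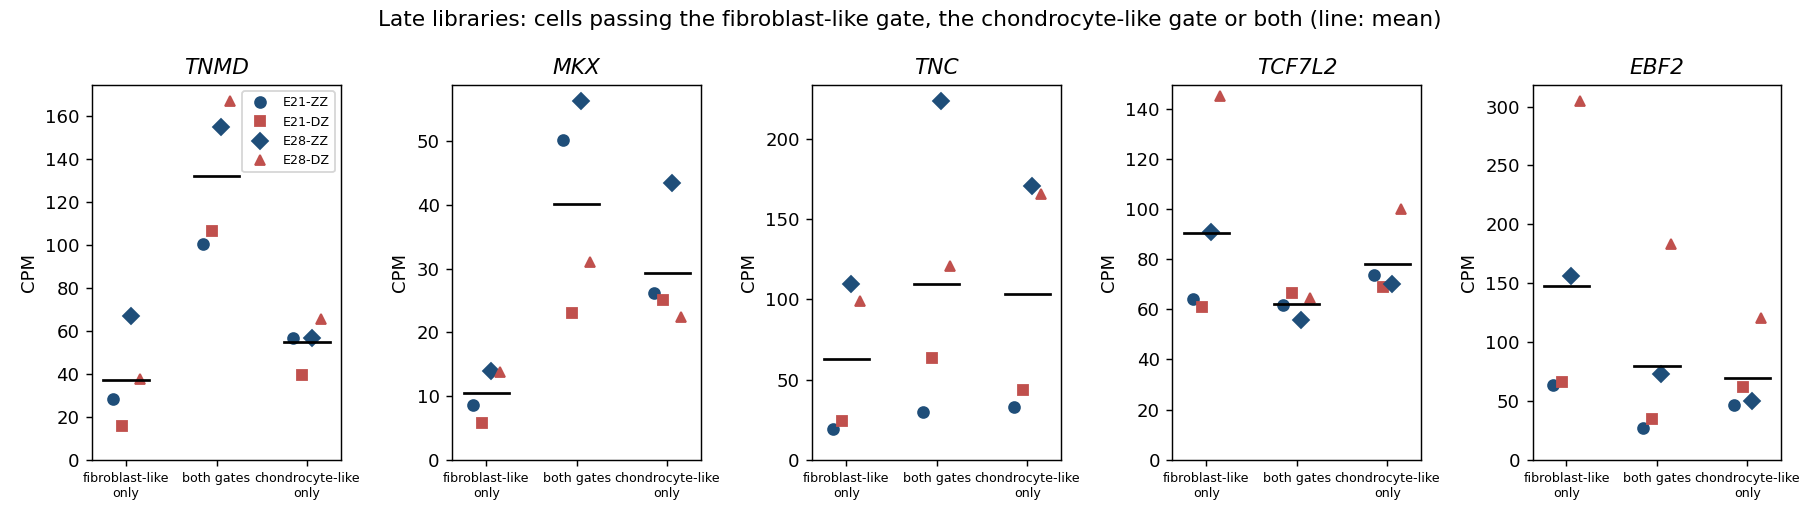
CPM of members in late cells given the fibroblast-like type, counted as passing both gates, or given the chondrocyte-like type. Each point is a library and the line is the mean of the 4. TNMD is highest in cells passing both gates, between 100.5 and 167.1 CPM.

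Cells with at least 2 TNMD UMIs, described with no test since TNMD chose them, numbered 138 to 546 a late library. In the order of the stages, ZZ before DZ, MKX in these cells was at 18.8, 13.4, 46.7 and 24.5 CPM, against 7.40, 8.11, 18.2 and 11.9 CPM in the other cells of each library. TNC was higher in them in all 4, by 0.63 to 0.99 on the log2 scale, and TCF7L2 was lower in all 4, by -0.81 to -0.44. EBF2 was lower in 3 of 4 (-1.89 to 0.13) and THBS4 in 2 of 4 (-0.49 to 0.34), and SCX was at 0 to 2.53 CPM in them. POSTN differed by stage: it was at 30.7 CPM against 141.2 in E21-ZZ and at 77.8 against 89.2 in E21-DZ, but at 1148 against 473.5 in E28-ZZ and at 1071 against 323.7 in E28-DZ. COL2A1, the main cartilage collagen, stood at 853.9, 633.3, 603.3 and 658.1 CPM in the TNMD cells, above the other cells in all 4 libraries, as was the cartilage factor SOX9. ACAN, the proteoglycan of cartilage, was higher in 3 of 4 and stood at 28.1 against 33.8 CPM in E28-ZZ. The collagens COL1A1 (by 0.77 to 1.87 on the log2 scale) and COL3A1 (0.10 to 1.28) and the proteoglycan LUM (0.35 to 1.21) were likewise higher in all 4, FMOD in 3 and DCN in 2. MYF5, a myogenic factor, stood at 2.68 to 28.7 CPM against 39.1 to 199.95 CPM. The early library E18-DZ had 40 such cells. In them TNC (37.2 against 74.6 CPM, from 8 UMIs) and COL1A1 (102 against 390 CPM) were instead lower, while COL2A1 was higher (1003 against 180 CPM).

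Levels within a type were compared between the periods where at least 3 early and 3 late libraries had 20 cells of it. In fibroblast-like cells 19.1% of genes were called. TNMD, EBF2, MKX and THBS4 had under 5 UMIs in at least 1 early sum and are not counted. Of the other 3 members tested POSTN and TCF7L2 were called. TCF7L2 was higher in late libraries by 1.20 ± 0.32 (adjusted p = 0.0271). Early fibroblast-like cells held 7 UMIs of TNMD, 4 of MKX and 9 of THBS4 in all, and 0, 1, 12 and 16 of EBF2 by library. The pooled late level was 27.5 times the early one for TNMD (95% counting interval 13.3 to 68.4), 12.7 times for MKX (4.93 to 46.7) and 46.5 times for THBS4 (24.5 to 101.8), counting error only. These ratios pool libraries, so their intervals leave out the spread between libraries. The late THBS4 UMIs numbered 41 and 47 in the E21 pair and 912 and 3908 in the E28 pair, so E28-DZ carried most of its ratio. POSTN was lower, at -1.61 ± 0.37 (adjusted p = 0.0166), and TNC was not called, at -0.93 ± 0.65 (adjusted p = 0.337). The TCF7L2 call was lost without E16-ZZ, E16-DZ, E18-DZ or E28-ZZ (adjusted p up to 0.0914) and that of POSTN without E16-ZZ or E16-DZ (up to 0.0564). Without both E16 libraries, which also differ in Cell Ranger version, both fell short of the threshold with directions kept (adjusted p = 0.136 for POSTN and 0.137 for TCF7L2).

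POSTN went in different directions in different cells. In fibroblast-like cells it was at 672, 700.0, 650.2 and 723 CPM in the early libraries and at 139.6, 131, 407 and 395 CPM in the late ones. The early values lay close together and above all late ones, and the E21 values were the lowest. In glia-like cells, named from markers of the neural crest lineage that ensheathes nerves, it was at 20.05, 25.2, 116 and 162 CPM in the early and 1572, 1260, 2892 and 2084 CPM in the late libraries, a rise of 4.43 ± 0.51 (adjusted p = 3.57e-05). The late-early difference in glia-like minus that in fibroblast-like cells was 6.52 ± 0.62 (adjusted p = 4.66e-10) in a fit over 6 types with the library as a block, where 15.2% of genes differed in this way. Glia-like cells were 4.28% and 2.73% of the cells of the E21 libraries and held 61.5% and 49.5% of their POSTN UMIs. In the E28 pair they held fewer POSTN UMIs than fibroblast-like cells, which held 8423 of 22130 and 6447 of 14570. Of the early POSTN UMIs, 32.3% to 50.5% lay in cells counted as passing 2 gates. Cells counted as passing the epithelial-like and fibroblast-like gates together had 936.3, 748.8, 1520 and 957.0 CPM of POSTN in the early libraries.

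**Figure D4:**
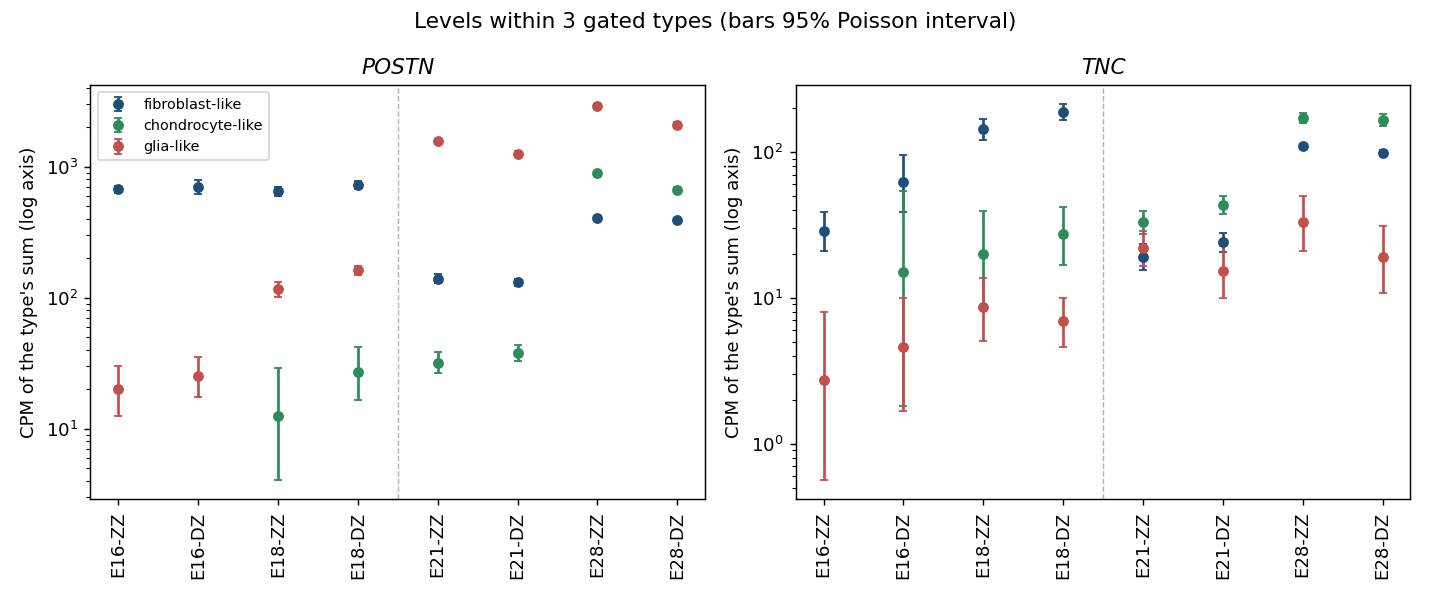
CPM of POSTN and TNC, on a log axis, in fibroblast-like, chondrocyte-like and glia-like cells of each library, with 95% Poisson counting intervals; a sum at 0 is not drawn and a dashed line separates early from late libraries. POSTN climbs in glia-like cells from 20.05 to 2892 CPM in ZZ and is lower in late than in early fibroblast-like cells.

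In chondrocyte-like cells, of which 3 early libraries had 27 to 157, 3.74% of genes were called. TCF7L2 was called, higher by 0.98 ± 0.21 (adjusted p = 0.036), from 6, 15 and 35 early UMIs. EBF2 had 3, 8 and 19 early UMIs against 168 to 356 in a late sum and is not counted. MKX had 1 early UMI against 456 late ones, a ratio of 37.4 with a 95% counting interval of 6.68 to 1480. THBS4 likewise had 1 early UMI against 765, a ratio of 62.7 with an interval of 11.2 to 2481. Of the 765, E28-DZ held 509 and E28-ZZ 188, so the ratio rests mainly on the E28 pair. TNC had 2, 8 and 20 and POSTN 0, 5 and 20 early UMIs, and DESeq2 called both but edgeR neither. The TCF7L2 call was lost without any 1 of the 7 libraries in this fit but E21-DZ (adjusted p up to 0.21). With a gate score of at least 1 too few libraries had 20 chondrocyte-like cells for this comparison.

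TNMD was not called in chondrocyte-like cells. It was at 89.7 CPM in E16-DZ, 17.5 in E18-ZZ and 46.5 in E18-DZ, from 12, 7 and 34 UMIs, against 39.6 to 65.5 CPM in late libraries, with a difference of 0.49 ± 0.39 (adjusted p = 0.51). These early UMIs lay in 3 of 27, 3 of 72 and 22 of 157 cells. Most early TNMD UMIs lay in cells that passed no gate: 68 of 80 in E16-ZZ, 37 of 53 in E16-DZ, 61 of 80 in E18-ZZ and 124 of 165 in E18-DZ. The late-early differences of TNMD, POSTN and TNC in chondrocyte-like minus those in fibroblast-like cells passed the threshold, as 5.7% of genes did, but each rests on a sum with under 5 UMIs and is not counted.

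In glia-like cells POSTN and TCF7L2 were called higher, where 30.0% of genes were called, TCF7L2 by 0.87 ± 0.19 (adjusted p = 0.00337). TNC, with 3, 6, 18 and 28 early UMIs, and EBF2, with 0, 0, 5 and 10, are not counted. In endothelial-like cells 26.8% of genes were called. Of the 3 members tested, TNC had a lowest sum of 2 UMIs and is not counted (fitted at -0.70 ± 0.48). POSTN, at 0.10 ± 0.35, was not called, and TCF7L2 was, by 0.52 ± 0.17 (adjusted p = 0.0462). That call was lost without any 1 library but E21-ZZ (adjusted p up to 0.175), with DESeq2 (0.078) and with a gate score of 1 (0.0713). In neuron-like cells edgeR called 0 of the 2 members tested, where 10.5% of genes were called. EBF2 was at -0.81 ± 0.30 (adjusted p = 0.117, unadjusted p below 0.05). TCF7L2 had a lowest sum of 0 UMIs and is not counted. Its fitted values were -2.21 ± 0.74 by edgeR (adjusted p = 0.0898, unadjusted p below 0.05) and an adjusted p of 0.0427 by DESeq2. In erythroid-like cells edgeR called 0 of 1, where 3.55% of genes were called. That member, TCF7L2, had a lowest sum of 4 UMIs and is not counted. Its fitted value was 1.45 ± 0.48 (adjusted p = 0.11, unadjusted p below 0.05), and DESeq2 gave it no adjusted p.

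Between neuron-like and fibroblast-like cells 11.4% of genes differed in their late-early difference, and between endothelial-like and fibroblast-like cells 15.5% did. EBF2 passed the threshold in both and TCF7L2 in the former. Neither is counted: early fibroblast-like sums held 0, 1, 12 and 16 UMIs of EBF2, and early neuron-like sums 1, 6 and 12 of TCF7L2.

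**Figure D5:**
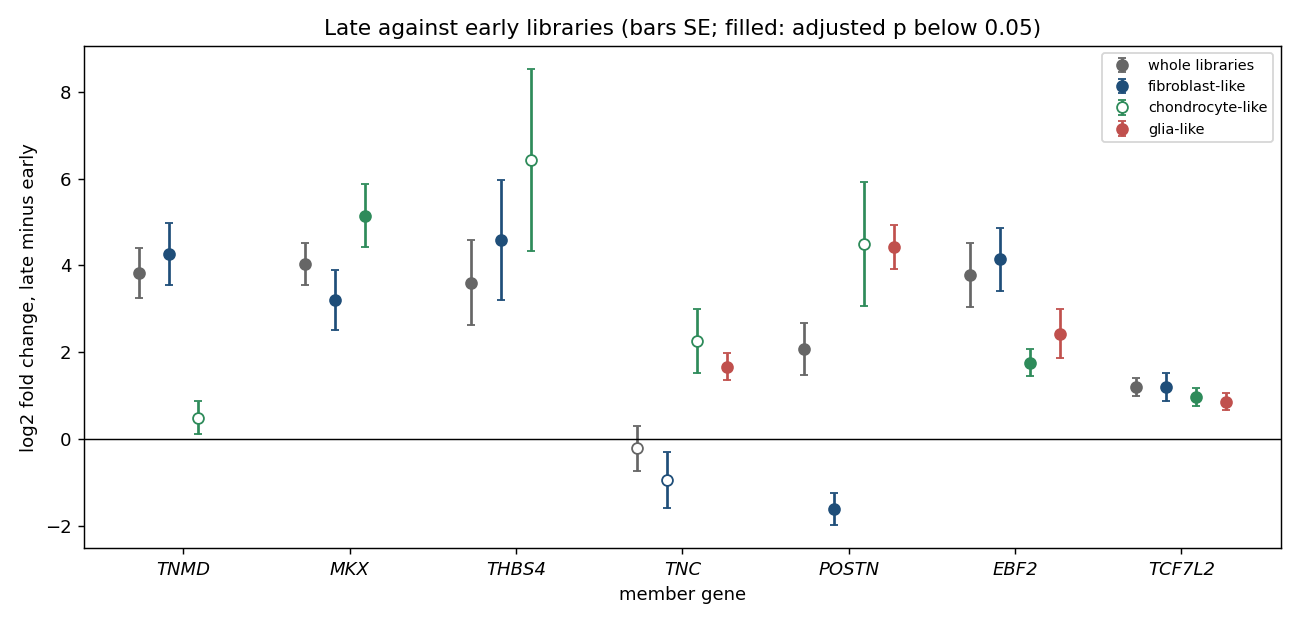
Log2 fold change of the members, late minus early libraries, in whole libraries and within fibroblast-like, chondrocyte-like and glia-like cells; bars are SE, filled points have an adjusted p below 0.05, and a missing point was not tested. POSTN is above 0 in whole libraries and glia-like cells and below 0 in fibroblast-like cells. Points of members with under 5 UMIs in an early sum, such as MKX and THBS4 in chondrocyte-like cells with 1 early UMI each, are drawn as fitted and not counted.

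The late stages were then compared within fibroblast-like cells. From E21 to E28, 5 of the 7 members tested were called higher, where 4.15% of genes were. THBS4 went from 8.34 and 6.38 to 44.1 and 239 CPM, by 3.83 ± 0.47 (adjusted p = 0.00102). TNC went from 19.1 and 24.2 to 109 and 98.6 CPM, by 2.21 ± 0.25 (adjusted p = 0.000792). The increase was 1.67 ± 0.23 (adjusted p = 0.00188) for EBF2, 1.49 ± 0.16 (adjusted p = 0.000639) for POSTN and 1.17 ± 0.24 (adjusted p = 0.0185) for TNMD. The TNMD call was lost without E21-ZZ, E21-DZ or E28-ZZ (adjusted p up to 0.114) and with DESeq2 (0.214). TCF7L2, at 0.81 ± 0.25 (adjusted p = 0.0775), and MKX, at 0.90 ± 0.37 (adjusted p = 0.198), were not called.

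TNC was also high in other gated types of the early libraries. In the E18 pair it was at 236 and 254 CPM in lateral mesoderm-like, 148 and 160.3 in epithelial-like, and 142.8 and 189 CPM in fibroblast-like cells. Lateral mesoderm-like cells numbered 251 to 609 in early libraries and at most 9 in a late one, and epithelial-like cells 275 to 2075 and at most 43. The part of these cells in the lower TNC of E21 was not tested. Within fibroblast-like cells alone, the E21 values of TNC, 19.1 and 24.2 CPM, were also below those of E18. So were those in muscle progenitor-like and myocyte-like cells, and in cells passing no gate (25.4 and 36.4 against 52.9 and 67.3 CPM). In chondrocyte-like cells TNC instead went from 20.1 and 27.3 CPM at E18 to 33.2 and 43.3 at E21. In glia-like cells it went from 8.59 and 6.88 to 21.9 and 15.4 CPM. In sclerotome-like cells it went from 4.10 and 16.7, with 2 and 5 UMIs, to 62.3 and 70.4 CPM. In Pax3+ progenitor-like cells it went from 10.5 and 17.0 to 12.5 and 22.3 CPM, the latter from 6 and 9 UMIs.

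Breeds were compared with the stage as a covariate, 4 libraries against 4. By edgeR 0 of the 8 members and 0.0% of 15127 genes were called. At an unadjusted p below 0.05 there were 901 genes, among them EBF2 and THBS4, and DESeq2 called 58 genes. EBF2 was higher in DZ at all 4 stages, by 0.54 ± 0.09 (adjusted p = 0.545) on the log2 scale, and was the member that DESeq2 called (adjusted p = 0.00306). THBS4 was also higher in DZ at all 4 stages, by 0.81 ± 0.30 (adjusted p = 0.808). The others were TNMD at -0.23 ± 0.34, MKX at 0.24 ± 0.33, TNC at 0.10 ± 0.19, POSTN at -0.68 ± 0.33 and TCF7L2 at 0.15 ± 0.09, and SCX had 0 to 9 UMIs in each ZZ and 0 to 23 in each DZ library. By edgeR, the late-early difference was called to differ between the breeds in 0 of 8 members and 0.0% of genes, with 126 genes but 0 members at an unadjusted p below 0.05. This second fit was made with edgeR only.

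Related genes were taken from 4 lists, which were chosen with earlier results of these data known. Their counts beside those of all genes are therefore a description. The genes were followed in late against early libraries and in fibroblast-like against muscle progenitor-like cells. In the former 2613 of all 14685 genes were called lower. Of 38 tendon genes tested, 19 were higher in late libraries, where 16.8% of all genes were, and 0 lower, with a median log2 fold change of 1.22 against 0.02 over all genes. No gate markers were left out of this count. The 4 with the lowest p were MATN4, a matrilin that is also a gate marker of the chondrocyte-like cells (6.94), CHODL (5.99), the collagen COL12A1 (2.66) and the proteoglycan KERA (7.17). Between the cell types, leaving out 7 gate markers, 17 of 28 tendon genes were higher in fibroblast-like cells and 4 lower, where 31.5% of all genes were called, with a median of 1.44 against 0.01 over all genes. BGN, a small proteoglycan, was higher by 2.45, FIBIN by 2.74 and the receptor TGFBR2 by 2.01.

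Of 23 regulators of muscle connective tissue, 7 were higher (16.8% of all genes) and 2 lower in late libraries, with a median of 0.21. The growth factor IGF1 was higher by 2.26, GSN by 1.90 and NFATC4 by 1.24, and the limb factor TBX4 was lower, at -5.17. Of 15 tested between the cell types, 7 were higher and 2 lower (31.5% of all genes called), with a median of 1.43, led by PRRX1, a mesenchymal factor (4.07), PDGFRB (2.89), NFATC4 (1.61) and MEOX2 (2.54). Of 20 paralogues of the members, 9 were higher (16.8% of all genes) and 4 lower in late libraries, with a median of 0.52. EBF1 (2.66) and EBF3 (3.47), relatives of EBF2, and IRX2 (1.93) were higher, and HAND1, a factor of lateral and cardiac mesoderm, was lower, at -7.44. Of 13 paralogues tested between the cell types, leaving out 5 gate markers, 9 were higher and 1 lower (31.5% of all genes called), with a median of 1.75, led by IRX1 (5.38), the periostin relative TGFBI (2.70), EBF1 (3.96) and THBS2 (3.94).

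Of 8 receptors of TNC and POSTN, 4 were higher (16.8% of all genes) and 0 lower in late libraries, with a median of 0.49: the integrin subunits ITGB5 (0.93), ITGB8 (1.24) and ITGA9 (0.71), and EGFR (1.07). Between the cell types 6 of 8 were higher and 0 lower (31.5% of all genes called), with a median of 1.52, led by ITGB8 (2.86), ITGA9 (1.45), EGFR (1.90) and ITGB5 (1.58).

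The genes most like each member were taken over 42 sums of late cells, from 13 cell classes and 4 libraries, by Pearson's r of log2(CPM + 1). They are a description, since the sums share libraries and depth. TNMD was most like GLT8D2 (r = 0.78), IGSF10 (0.78), RUNX2 (0.78), P3H3 (0.77) and PAQR9 (0.77). MKX was most like SGCD (0.84), FIBIN (0.82), MGP (0.82), MFAP4 (0.82) and GFPT2 (0.80). For TNC the first named genes were FIBIN (0.80), CRTAP (0.79) and the proteoglycan FMOD (0.78), and for POSTN they were CNP, a myelin enzyme (0.81), CDK18 (0.79) and THBS2 (0.75). EBF2 was most like DNM1 (0.82), PENK (0.81) and THY1 (0.80), THBS4 like KAZALD1 (0.76) and NFIX (0.73), and TCF7L2 like CCND2 (0.92) and YAP1 (0.90). With 61 UMIs, SCX is left out here. Among the other members r ran from 0.07 for EBF2 with TCF7L2 to 0.67 for EBF2 with THBS4 and for TNC with MKX and with TNMD.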

How the data were processed

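Single cells of pig somites and myotome were measured in 8 libraries on the 10x Chromium platform. The authors deposited whole UMI counts per gene and barcode, filtered to cells by Cell Ranger (3.1.0 for E16, 3.0.2 for the other 6 libraries, per the file headers) on Sscrofa11.1 with Ensembl release 98, and not normalized. Barcodes with under 200 genes, over 30000 UMIs or over 10% mitochondrial UMIs were removed. Scrublet (scanpy 1.11.5) marked only 325 barcodes automatically, so the highest scores were removed, at 0.8% per 1000 barcodes of a library (7526 in all). A cell was gated to a type at a mean marker z-score of at least 0.5 with at least 3 markers found, and it counted as passing 2 gates where the second score exceeded 50% of the first. Of all cells, 2565 lay within 0.1 of the limit.

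Counts were summed per library, or per type and library with at least 20 cells, and tested with edgeR 4.0.16 in R 4.3.3 (quasi-likelihood, TMM, filterByExpr, Benjamini-Hochberg over all genes tested). SE is the log2 fold change divided by the square root of F. Scripts were tested on simulated data. Poisson, ratio and binomial intervals are exact, and cover counting error only. Thinning, exact permutation tests and sequences used Python 3.11.15 and scipy 1.17.1. Alternatives were DESeq2 1.42.0, RLE size factors, no filter, no breed covariate, other cell filters, gates and thinning, and leaving out libraries. The limit of 5 UMIs in every sum, a gate score of 1, the gated types without E16, the differences of differences and the cells passing both gates were added after seeing the data.

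The members, markers and lists were chosen with earlier results of these data known. The rule names every member in each comparison of libraries or types, and those past the threshold in the differences of differences. From each list the 4 genes with the lowest p in each of its comparisons are named, except 1 that is not reported here, and likeness names the first of the 5 genes with the highest r, without gate markers and genes under 50 UMIs.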

Additional observations from a re-analysis of the deposited data

Results flagged for a closer look

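In 72 groups of 4 libraries, 7 members' levels had 1 library far from the other 3, where chance gives about 1 in 20 groups. MKX was at 55.8 CPM in myocyte-like cells of E28-ZZ. THBS4 was at 239.3 CPM in fibroblast-like and 64.1 CPM in myocyte-like cells of E28-DZ, in which EBF2 was also at 58.1 CPM in myocyte-like and TCF7L2 at 100.0 CPM in chondrocyte-like cells. POSTN was at 14.1 CPM in early endothelial-like cells of E18-ZZ and at 45.5 CPM in late neuron-like cells of E28-ZZ, the latter from 13 UMIs.

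The late-early difference of a type minus that of fibroblast-like cells was past edgeR's threshold in 9 of the 43 member values tested, differences between the breeds included (0.0% of all genes). In glia-like cells, where 15.2% of all genes differed, POSTN stood at 6.52 on the log2 scale (adjusted p = 4.66e-10). The other 8 rest on at least 1 sum with under 5 UMIs and are fitted values only. POSTN was at 5.89, TNC at 3.42 and TNMD at -3.75 in chondrocyte-like cells (5.7% of all genes), TNC at 3.15 and THBS4 at -4.26 in glia-like cells, EBF2 at -3.18 in endothelial-like cells (15.5%), and EBF2 at -4.23 and TCF7L2 at -2.85 in neuron-like cells (11.4%). These fits were added after values had been seen, and their causes were not tested.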

How the results depend on the processing

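No paired analysis was possible because the labels carry no replicate numbers to pair by; the breeds were matched by stage and the types by library as terms of their fits. These counts of calls include members that passed the filter on low counts through 1 group, and calls gained as well as lost. Leaving out 1 library gave 7 to 12 member calls between adjacent stages (11 with all libraries), 4 to 6 in late against early libraries (6), 8 to 16 within types (14), 34 to 40 between types (42) and 4 to 6 for E28 against E21 in fibroblast-like cells (5). For the share of cells it gave 0 in every case (7), since 3 against 4 libraries cannot go below an exact p of 0.0571. Without both E16 libraries 2 calls remained in whole libraries and 5 within types, a gate score of 1 left 9 within types (chondrocyte-like cells were not tested, THBS4 failed the filter in fibroblast-like cells and TCF7L2 lost its call in endothelial-like cells), and DESeq2 made 1 call between breeds against 0. Without both E28 libraries, late-early values were 0.88 for THBS4, 0.82 for POSTN and -1.498 for TNC. With a mitochondrial limit of 5%, POSTN was at 1.15 in late against early libraries (adjusted p = 0.252) and turned to -0.96 from E18 to E21.

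Other signs that turned were of uncalled differences, and the cause was not tested. Fibroblast-like minus chondrocyte-like, POSTN was 0.0583 with a gate score of 1, and THBS4 was 0.058 with that score, 0.0625 with the 5% limit, 0.0168 with RLE and 0.015 with no filter. THBS4 against sclerotome-like was 0.0838 with no doublets removed. POSTN late-early in endothelial-like was -0.0692 with no doublets removed and -0.0679 without E16. The TNC share was -0.32 points not thinned. Leaving out 1 library gave, from E16 to E18, -0.89 to 0.27 for MKX, -0.0415 to 0.32 for TCF7L2, -0.70 to 0.22 for THBS4 and -0.41 to 1.33 for TNMD. It gave -0.12 to 1.30 for POSTN from E18 to E21, -0.30 to 0.34 for SCX from E21 to E28, and between breeds -0.10 to 0.33 for TNC and -0.61 to 0.0528 for TNMD. Fibroblast-like minus chondrocyte-like it gave -0.59 to 0.33 for POSTN, -0.0459 to 0.22 for TCF7L2 and -0.21 to 0.0687 for THBS4, and against sclerotome-like -0.14 for TCF7L2. Late-early it gave -0.0938 to 0.79 for TNMD in chondrocyte-like and -0.19 to 0.36 for POSTN in endothelial-like cells, -0.92 to 0.0895 for TNC in whole libraries and -0.95 to 2.33 points for its share.

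The differences of differences and the cells passing both gates were fitted with edgeR only. Depth limits SCX (61 UMIs) throughout and TNMD, MKX and THBS4 in early gated cells.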
